A study of Mus musculus with 9 samples.

Results

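The cardiac myosin heavy chain genes Myh6, Myh7 and Myh7b and the antisense transcript Mhrt were followed in single-nucleus RNA sequencing (sNuc-seq) of mouse hearts. They were chosen by name, as 4 of the 23747 genes in each table, and all 4 passed the filter on low values. Every nucleus of a heart gave UMIs (unique molecular identifiers, 1 per captured RNA molecule), and the 4 genes were read in the 10531 cardiomyocyte nuclei among 49171 nuclei in all. The study had 3 groups of 3 C57BL/6 mice. Sham mice received vehicle by gavage and had a needle passed without ligation. I/R mice received vehicle, then 30 min of ligation of the left anterior descending coronary artery and 24 h of reperfusion. SBP mice had the same ischemia and reperfusion after gavage with Shexiang Baoxin Pill, which the sample labels call MUSKARDIA. All 9 mice were thus gavaged beforehand and operated on, the study took tissue from below the ligation, and no group received SBP without ischemia. Each replicate is described as 1 heart, so the spread given is between hearts.

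Myosin heavy chains are the motor proteins of the thick filament. Myh6 encodes alpha myosin heavy chain, the fast motor of the adult mouse ventricle, and Myh7 encodes beta myosin heavy chain, the slower motor of the fetal mouse ventricle that returns under overload and in low thyroid hormone states. Myh7b encodes a more distant slow-type chain, whose mRNA in the mammalian heart is mostly spliced to a form that gives no full-length protein. Mhrt (Myheart) is a long noncoding RNA of cardiomyocyte nuclei, read antisense to Myh7, that is known to bind the chromatin remodeler Brg1 and to fall in the overloaded heart.

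In the GENCODE M21 annotation of GRCm38, the build that the submitters name, Myh6 (ENSMUSG00000040752.16) lies at chr14:54941921-54966927 on the minus strand and Myh7 (ENSMUSG00000053093.16) at chr14:54970684-54994626 on the same strand. Mhrt (ENSMUSG00000097652.2) lies between and across them at chr14:54968678-54974349 on the plus strand. Its start is 1751 bases from that of Myh6, in the intergenic stretch, and its last 3666 bases, 64.6% of its length, overlap the 3′ end of Myh7. Myh7b (ENSMUSG00000074652.3) stands alone at chr2:155611212-155634307 on the plus strand. A 3′ library counts Myh7 at the end that it shares with Mhrt. The strand setting of the counting is not given in the sources used here, and reads of a gene and its antisense partner cannot be told apart without it.

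Each of the 3 myosin genes carries a microRNA in an intron, on its own strand, which is why they are shown here. The RefSeq mature sequences (GRCm38.p6) have their seeds, bases 2 to 8, in capitals. They lie at chr14:54949072-54949093 (minus) in Myh6, chr14:54975710-54975731 (minus) in Myh7 and chr2:155622893-155622913 (plus) in Myh7b.
mmu-miR-208a-3p in Myh6: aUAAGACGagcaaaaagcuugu
mmu-miR-208b-3p in Myh7: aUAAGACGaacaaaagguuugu
mmu-miR-499-5p in Myh7b: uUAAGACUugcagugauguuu
The seeds in Myh6 and Myh7 are identical, UAAGACG, and that in Myh7b, UAAGACU, is not the same. These libraries do not measure mature microRNAs.

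The promoters are shown because the levels of the 4 genes varied 5.97-fold to 23.8-fold between mice, and not all in the same direction. Each is the RefSeq stretch from 250 bases before to 50 bases after a start site (GRCm38.p6), 5′ to 3′ on the gene's strand, with capitals for the M-CAT letters CATTCC or CATTCT on either strand, the core that TEAD factors are known to bind. The windows are chr14:54966558-54966857 (minus) for Myh6, chr14:54994577-54994876 (minus) for the outer of the Myh7 starts, chr14:54968537-54968836 (plus) for Mhrt and chr2:155610993-155611292 (plus) for Myh7b. These RefSeq starts are not all those of the GENCODE coordinates above. The whole Myh6 window lies inside the GENCODE gene, and the RefSeq start of Mhrt falls after its GENCODE start.
Myh6: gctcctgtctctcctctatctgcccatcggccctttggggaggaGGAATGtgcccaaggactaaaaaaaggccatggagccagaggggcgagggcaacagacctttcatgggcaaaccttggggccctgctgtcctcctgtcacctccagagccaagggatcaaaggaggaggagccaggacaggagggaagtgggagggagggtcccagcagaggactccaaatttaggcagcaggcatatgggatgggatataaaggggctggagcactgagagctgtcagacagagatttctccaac
Mhrt: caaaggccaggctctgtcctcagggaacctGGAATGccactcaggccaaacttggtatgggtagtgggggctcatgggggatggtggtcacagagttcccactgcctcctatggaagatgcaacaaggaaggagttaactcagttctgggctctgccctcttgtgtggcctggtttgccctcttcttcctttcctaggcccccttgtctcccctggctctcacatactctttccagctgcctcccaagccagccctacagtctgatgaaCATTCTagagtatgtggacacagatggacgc
Myh7: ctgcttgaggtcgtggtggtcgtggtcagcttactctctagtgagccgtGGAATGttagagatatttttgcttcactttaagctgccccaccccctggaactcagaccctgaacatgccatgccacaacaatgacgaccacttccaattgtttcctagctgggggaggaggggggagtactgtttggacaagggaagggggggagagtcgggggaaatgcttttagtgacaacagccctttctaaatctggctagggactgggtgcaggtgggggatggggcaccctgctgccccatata
Myh7b: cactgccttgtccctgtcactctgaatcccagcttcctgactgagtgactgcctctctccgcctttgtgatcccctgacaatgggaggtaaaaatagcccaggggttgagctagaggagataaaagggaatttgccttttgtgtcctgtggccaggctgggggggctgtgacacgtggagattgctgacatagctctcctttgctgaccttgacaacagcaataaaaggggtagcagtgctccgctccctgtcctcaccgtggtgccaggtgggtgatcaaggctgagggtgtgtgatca
The letters stood at position -206 from the start site in Myh6, -201 in Myh7 and -220 in Mhrt, which held a further match after its start, and at none in Myh7b. Of all 32851 promoter windows of the same length, 28.3% held them. The letters TATAAA or TATATA, found in 17.1% of windows, were in the Myh6 window alone among the 4, the E-box letters CANNTG, found in 72.3%, were in all 4, and AGATAA or TGATAA, found in 18.6%, were in that of Myh7b alone. The Myh6 match to TATAAA or TATATA stood at position 1 from the RefSeq start. A match is a description of the letters, not a site of binding.

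The 9 libraries held 4576 to 6418 nuclei and 10329520 to 18205985 UMIs. Cardiomyocyte nuclei came from 1 of 12 clusters, built without the 4 genes, in which all 8 defining markers were detected, with Ttn in 99.7% and Ryr2 in 99.4% of nuclei. A mouse gave 941 to 1489 cardiomyocyte nuclei, and their median depth was 3174 to 5717 UMIs per nucleus. Libraries shared 4 to 14 barcode sequences per pair. I/R replicate 2 stood apart from the other I/R hearts in Myh6, Myh7 and Mhrt. Its Mhrt was in the range of the SBP hearts or below and its Myh7 nearer to theirs. Myh7b was also lowest in it, but all the I/R hearts were spread there, at 441, 71.9 and 184 CPM. The comparisons of levels and shares that turn on I/R replicate 2 are therefore given with and without it. It was singled out by the values of these same genes, so a difference or p-value without it is a description, not independent support. In its cardiomyocyte nuclei the summed level of 9 myeloid markers was 152 CPM. That sum was 43.3 to 84.3 CPM in sham and SBP hearts and 77.4 to 152 CPM over the I/R hearts. The summed level of the 8 cardiomyocyte markers was 35654 CPM in I/R replicate 2. It was 41940 to 57743 CPM in sham and SBP hearts and 34066 to 54092 CPM over the I/R hearts. The part of either sum in the results was not tested. A level below is CPM, the CPM unit of sequencing counts scaled to library size, taken from the summed UMIs of the cardiomyocyte nuclei of a mouse with TMM scaling, and levels are compared between mice, not between genes.

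Myh7, the fetal and slow motor, differed most between hearts. It stood at 355, 101 and 193 CPM in the sham mice (replicates 1 to 3), at 106, 1253 and 131 CPM in the I/R mice and at 2408, 1857 and 1754 CPM in the SBP mice. All 3 SBP hearts were above all sham and all I/R hearts, and I/R replicate 2 lay between these and the rest, so the highest heart had 23.8 times the level of the lowest. Among the 1642 genes with a mean of at least 100 CPM, Myh7 ranked 1 for the size of its increase both in SBP vs. I/R and in SBP vs. sham. In I/R vs. sham it ranked 160.

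Mhrt, the antisense RNA, had the opposite order. Its level was 1211, 1151 and 1142 CPM in the sham mice, 1118, 146 and 723 CPM in the I/R mice, and 156, 287 and 228 CPM in the SBP mice. Sham hearts were close to each other and lay above every other heart. I/R replicate 2 was the lowest of the 9 and overlapped the SBP hearts, while the other I/R hearts did not. For the size of its decrease, Mhrt ranked 2 of the 1642 genes in SBP vs. I/R and 3 in SBP vs. sham. In I/R vs. sham it ranked 13, beside Myh7b at 12 and Myh6 at 21. In SBP vs. sham Myh6 ranked 22 and Myh7b 49.

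Myh6, the adult fast motor, was at 10590, 9578 and 10647 CPM in the sham mice, 8942, 1785 and 6732 CPM in the I/R mice, and 3128, 6138 and 6355 CPM in the SBP mice. Every sham heart was above every I/R and SBP heart, and the I/R and SBP hearts overlapped. Myh7b was at 576, 333 and 419 CPM in the sham mice, 441, 71.9 and 184 CPM in the I/R mice, and 148, 294 and 355 CPM in the SBP mice. Its groups overlapped in all 3 comparisons. I/R replicate 2 was the lowest heart for Myh6 as well as Myh7b, and SBP replicate 1 was the lowest SBP heart for both.

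**Figure D1:**
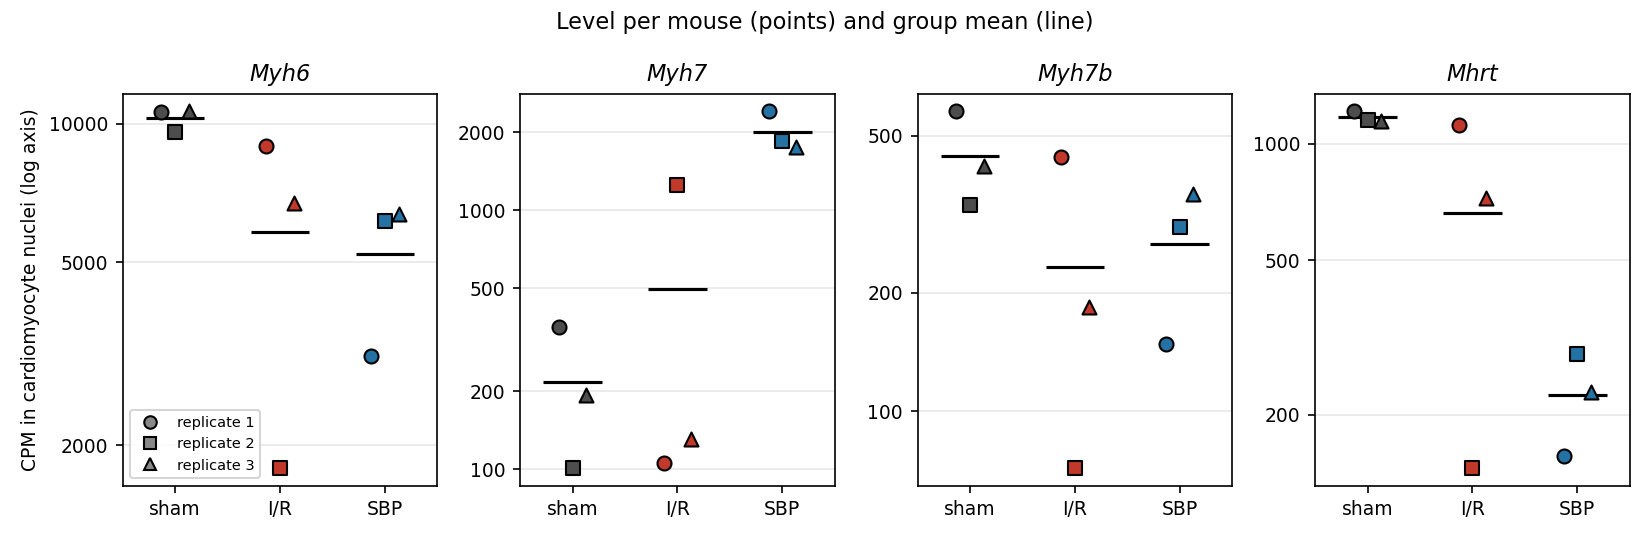
Level of the 4 genes in cardiomyocyte nuclei, in CPM on a log axis, for each mouse (points, shaped by replicate) of the sham, I/R and SBP groups, with the group mean as a line. The 3 SBP hearts are highest for Myh7, and I/R replicate 2 sits with them rather than with the other I/R hearts for Mhrt.

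The first comparison, I/R vs. sham, asks what ischemia and reperfusion alone did. The limma test across 12878 genes (Benjamini-Hochberg over all genes, threshold 0.05, with a change of more than 0.25 on the log2 scale in either direction) called 0.815% of genes in either direction, and none of the 4. The log2 fold change was -1.11 for Myh6 (SE 0.52, adjusted p = 0.365), 0.44 for Myh7 (SE 0.80, adjusted p = 0.841), -1.25 for Myh7b (SE 0.56, adjusted p = 0.352) and -1.25 for Mhrt (SE 0.60, adjusted p = 0.383). Myh6 and Mhrt were lower in all I/R than in all sham hearts, as were 8.3% of the genes tested, and no member was higher in all I/R hearts, against 8.08% of genes. Without I/R replicate 2 the estimates shrank to -0.40 for Myh6, -0.60 for Myh7b and -0.38 for Mhrt, and that for Myh7 turned to -0.69, while without I/R replicate 1 Myh7b passed the test (log2 fold change -1.90, adjusted p = 0.0373) in a fit that called 6.31% of genes.

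The second comparison, SBP vs. I/R, asks what the drug added. No gene of the 12878 was called (0.0%, with 277 genes at an unadjusted p under 0.05), so no member passed. Myh7 had a log2 fold change of 2.93 (SE 0.80, adjusted p = 1), a 7.63-fold higher level, and Mhrt one of -1.17 (SE 0.60, adjusted p = 1). Myh6 and Myh7b had log2 fold changes of 0.06 (SE 0.52) and 0.47 (SE 0.56), with intervals of 2 SE from -0.97 to 1.09 and from -0.66 to 1.59. The intervals held both a decrease and an increase, so neither direction was settled. By the size of its increase, Myh7b ranked 25 of the 1642 genes with a mean of at least 100 CPM. Myh7 was higher in all SBP than in all I/R hearts, as were 2.75% of genes, and none of the 4 was lower in all, against 2.83%.

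The call in this comparison turned on I/R replicate 2. That heart was singled out by its levels of these same genes, so the values without it are a description. Without it the limma fit called 0.00785% of genes, which is 1 of 12746, and that gene was Myh7 (log2 fold change 4.06, adjusted p = 0.0331). Mhrt did not pass there (log2 fold change -2.04, adjusted p = 0.116), and without I/R replicate 1 its estimate was -0.57, while without I/R replicate 2 the values for Myh6 and Myh7b were -0.65 and -0.19.

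The third comparison, SBP vs. sham, spans ischemia with reperfusion and the drug together. The fit over all 9 mice called 0.124% of genes and none of the 4, with Myh7 at a log2 fold change of 3.37 (SE 0.80, adjusted p = 0.122) and Mhrt at -2.42 (SE 0.60, adjusted p = 0.131). Myh6 stood at -1.05 (SE 0.52, adjusted p = 0.407) and Myh7b at -0.79 (SE 0.56, adjusted p = 0.569). Myh7 was higher in all SBP hearts, as were 10.7% of genes tested, and Myh6 and Mhrt were lower in all of them, as were 12.6% of genes.

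The spread in this fit is shared with the I/R group. With only the 6 sham and SBP mice in the fit, 3.17% of genes were called, and Myh7 (log2 fold change 3.37, adjusted p = 0.00929) and Mhrt (-2.42, adjusted p = 0.00434) passed, whereas Myh6 (adjusted p = 0.0673) and Myh7b (adjusted p = 0.243) did not. Without I/R replicate 2, 0.353% of genes were called and the same 2 members passed, with adjusted p-values of 0.0215 for Myh7 and 0.0112 for Mhrt. Without I/R replicate 1 they passed as well, at 0.0486 and 0.0365, where 2.2% of genes were called.

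Ratios within a mouse do not depend on the scaling between libraries. Of the UMIs of Myh6 and Myh7 together, Myh7 made up 3.24%, 1.05% and 1.78% in the sham mice, 1.17%, 41.2% and 1.91% in the I/R mice, and 43.5%, 23.2% and 21.6% in the SBP mice. The SBP hearts were above the sham hearts by 27.4 percentage points (two-sided exact permutation test, p = 0.1, the smallest that 3 against 3 can give, adjusted p = 0.3 over 3 contrasts). The I/R hearts overlapped both other groups, with exact permutation p-values of 0.6 against sham and 0.3 against SBP (a difference of 14.7 percentage points). Without I/R replicate 2 the SBP hearts were above the other I/R hearts by 27.9 percentage points with no overlap (exact permutation p = 0.1, the smallest possible), and I/R differed from sham by -0.48 points instead of 12.7.

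Mhrt and Myh7b behaved differently against Myh6. Per 100 UMIs of Myh6 there were 11.4, 12.0 and 10.7 UMIs of Mhrt in the sham mice, 12.5, 8.17 and 10.8 in the I/R mice, and 5.00, 4.68 and 3.59 in the SBP mice. The SBP hearts were the lowest 3 of the 9, below I/R replicate 2, in which both RNAs were scarce. Myh7b stayed between 2.73 and 5.59 UMIs per 100 of Myh6 in all 9 hearts, while the level of Myh6 itself varied 5.97-fold. The sum of Myh6 and Myh7 levels was 9679 to 10945 CPM in sham, 3038 to 9048 CPM in I/R and 5536 to 8109 CPM in SBP hearts.

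Detection per nucleus was read after each nucleus was thinned to 1000 UMIs, which left out 4 of the 10531 cardiomyocyte nuclei. A Myh7 UMI was then found in 18.1%, 9.68% and 14.1% of nuclei in the sham mice, 8.68%, 44.97% and 8.85% in the I/R mice, and 58.4%, 59.3% and 54.6% in the SBP mice. The SBP hearts were closely spaced (57.5% ± 2.5, SD, n = 3) and above all others, and I/R replicate 2 again lay between. Mhrt was found in 64.6%, 64.1% and 63.2% of nuclei in sham, 60.3%, 13.4% and 50.7% in I/R, and 15.6%, 24.7% and 19.9% in SBP mice. Unthinned, the group means for Myh7 were 42.6%, 45.9% and 76.2%, and for Mhrt 91.9%, 74.3% and 56.0%.

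Myh6 was in 98.4% to 99.6% of thinned nuclei in sham, in 97.5%, 66.9% and 96.5% in I/R, and in 77.8%, 94.9% and 94.6% in SBP mice. Myh7b was in 29.0% to 41.4% of nuclei in sham, in 34.1%, 6.67% and 16.5% in I/R, and in 11.7%, 24.7% and 27.8% in SBP mice. Unthinned, the group means were 99.9%, 96.4% and 97.8% for Myh6 and 71.5%, 46.7% and 52.8% for Myh7b. Of 12 exact permutation tests on these shares, 7 reached the smallest possible p of 0.1 (adjusted p = 0.171), 1 of them in SBP vs. I/R, which was Myh7 with a difference of 36.6 percentage points. In the same contrast Mhrt differed by -21.4 points (exact permutation p = 0.4). Without I/R replicate 2 these became 48.7 and -35.4 points (exact permutation p = 0.1 for both, the smallest possible), those for Myh6 and Myh7b turned from 2.11 to -7.93 and from 2.31 to -3.89, and in I/R vs. sham Myh7 turned from 6.88 to -5.19, Myh6 went from -12.2 to -2.12, Myh7b from -14.8 to -8.56 and Mhrt from -22.5 to -8.45.

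UMIs in nuclei of other cell types were read as a measure of the background in the same library. Free RNA, missed doublets and what those nuclei make were not separated. At the same 1000 UMIs, Myh7 was found in 8.63%, 0.97% and 4.55% of the other nuclei in sham, 0.36%, 5.64% and 1.96% in I/R, and 12.0%, 18.0% and 10.6% in SBP mice. In each of the 9 mice the cardiomyocyte share was above it. The median depth before thinning was 1265 to 1733 UMIs in the other nuclei, against 3174 to 5717 UMIs in cardiomyocyte nuclei.

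Myh6 was in 24.6% to 81.5% of the other nuclei, while Myh7b (0.14% to 2.21%) and Mhrt (0.12% to 2.28%) were rare there. Unthinned, Myh7 was in 19.1% to 29.4% of endothelial, 16.2% to 30.6% of fibroblast and 16.7% to 30.1% of myeloid nuclei in SBP mice. The median depth there was 1288.5 to 1322.5 UMIs in endothelial, 1696 to 2104.5 in fibroblast and 1672 to 1844 in myeloid nuclei. These shares were thus not compared at a like depth. In CPM of each cell type without TMM scaling, Myh7 in endothelial nuclei of SBP replicates 1 to 3 was at 174, 405 and 201. Fibroblast nuclei stood lower in each mouse, at 124, 160 and 91.4 CPM, as did myeloid nuclei, at 121, 191 and 118 CPM. Myh6 was likewise highest in endothelial nuclei of these mice, at 608, 1120 and 813 CPM. It was at 457, 384 and 434 CPM in fibroblast and at 468, 446 and 475 CPM in myeloid nuclei. The Myh7 share of Myh6 and Myh7 UMIs in the other nuclei was 0.42% to 5.64% in the sham hearts and I/R replicates 1 and 3, 15.4% in I/R replicate 2 and 18.8% to 26.8% in the SBP hearts.

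**Figure D2:**
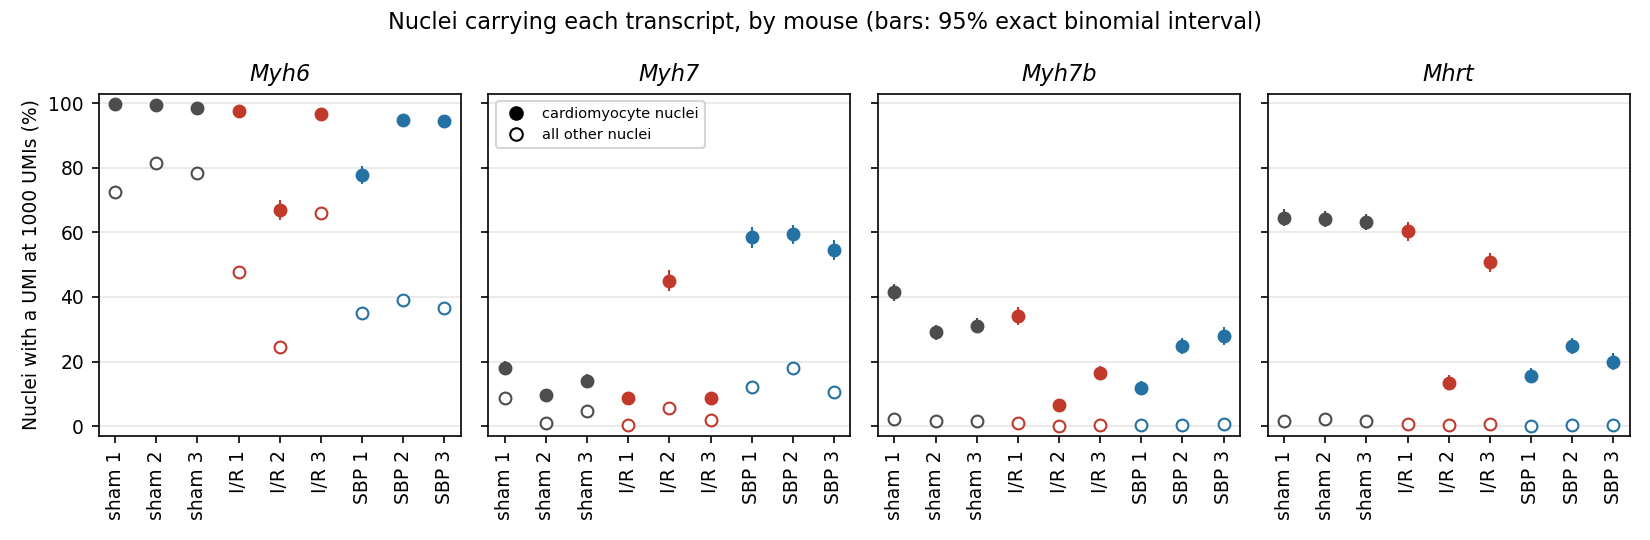
Percent of nuclei with at least 1 UMI of each gene after thinning to 1000 UMIs, for each mouse, in cardiomyocyte nuclei (filled) and in all other nuclei (open). Bars are 95% exact binomial intervals, which cover counting error only. Mhrt and Myh7b are nearly absent from the other nuclei, while Myh6 is in 24.6% to 81.5% of them.

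The 4 genes differed in how far they were held to cardiomyocyte nuclei. Per nucleus, Mhrt had 104 to 508 times as many UMIs in cardiomyocyte as in other nuclei of the same mouse (median 198), and Myh7b 57.6 to 174 times (median 105). Myh6 had 11.8 to 34.1 times (median 17.1) and Myh7 8.60 to 95.7 times (median 26.5). The cardiomyocyte markers Ttn (24.2 to 73.3) and Tnnt2 (16.7 to 40.2) lay below the range of Mhrt in every mouse. In the cardiomyocyte cluster, formed without these genes, Mhrt ranked 2 and Myh7b 5 by fold over the other nuclei. These ratios combine what a nucleus makes with what free RNA adds to the others, and the 2 were not separated.

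**Figure D3:**
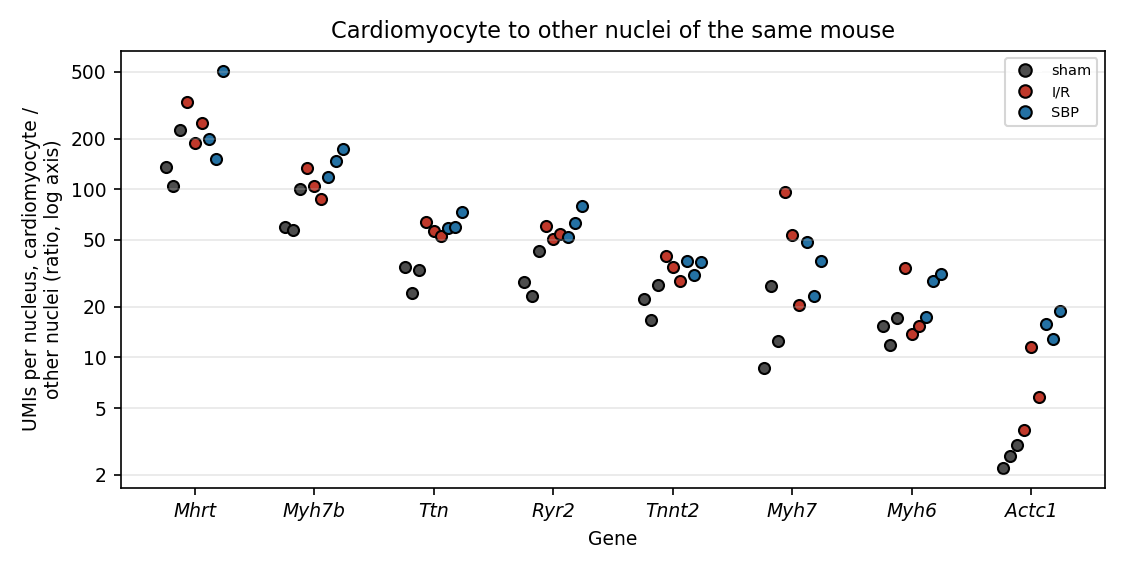
Ratio of UMIs per nucleus in cardiomyocyte nuclei to all other nuclei of the same mouse, on a log axis, for the 4 genes and 4 sarcomere or calcium release genes. Each point is a mouse, coloured by group. Mhrt spans 104 to 508 and Myh6 11.8 to 34.1.

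The Myh7 UMIs were spread unevenly over nuclei. Without thinning, a nucleus with any Myh7 held a median of 1 UMI in each sham mouse and in I/R replicates 1 and 3, but 7 in I/R replicate 2 and 12, 9.5 and 8 in the SBP mice. Nuclei with 10 or more Myh7 UMIs made up 0.07% to 3.01% in sham, 0.19%, 26.2% and 1.13% in I/R, and 44.7%, 40.0% and 32.9% in SBP mice, beside 24.0%, 20.1% and 27.3% of SBP nuclei with none. The most in 1 nucleus was 151 UMIs, in SBP replicate 1.

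After thinning, the variance of Myh7 over nuclei was 3.55 to 4.64 times its mean in the SBP hearts and 4.13 times in I/R replicate 2, at means of 1.46 to 2.51 UMIs. At means of 0.10 to 0.30 UMIs it was 1.18 to 2.99 in the sham hearts and 1.27 in I/R replicate 1, and it was highest of all, 4.66, in I/R replicate 3. A gene whose molecules were drawn evenly over nuclei would have a ratio of 1. Myh6 at a like mean in I/R replicate 2 (2.09 UMIs) had 3.35, and Tnnt2 at 3.57 to 5.32 UMIs had 1.71 to 2.22. Mhrt had 1.02 to 1.42 in the 9 hearts, at means of 0.15 to 1.26 UMIs.

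Myh7 outnumbered Myh6 in 32.4%, 13.3% and 12.9% of thinned nuclei of the SBP mice and in 28.1% of those of I/R replicate 2, against at most 0.48% in each of the other 5 hearts. Most nuclei with Myh7 also held Myh6, namely 75.8%, 95.1% and 94.7% in the SBP mice, 64.7% in I/R replicate 2 and at least 97.3% in the rest. Nuclei with Myh7 and no Myh6 were 14.1%, 2.93% and 2.92% of all in the SBP mice and 15.9% in I/R replicate 2. Unthinned, they were 0.09% to 3.4% in the SBP mice and at most 6.24% in an I/R mouse. Myh6 was then in at least 95.5% of nuclei with Myh7 in each SBP mouse and at least 89.95% in each I/R mouse.

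Sorted by Myh7 and Mhrt, thinned nuclei with Mhrt alone were 54.3%, 56.8% and 54.7% in the sham mice, 54.3%, 6.56% and 46.3% in the I/R mice, and 4.99%, 10.9% and 10.4% in the SBP mice. Nuclei with Myh7 alone were 7.76%, 2.38% and 5.65% in sham, 2.71%, 38.1% and 4.51% in I/R, and 47.8%, 45.5% and 45.1% in SBP mice. Nuclei with both varied less, from 4.34% to 13.8% over the 9 hearts, and those with neither were 27.7% to 48.5%. These classes depend on depth. Unthinned, the means in sham, I/R and SBP mice were 40.5%, 34.1% and 44.0% for both, and 5.97%, 13.9% and 11.8% for neither. For Mhrt alone they were 51.5%, 40.2% and 12.0%, and for Myh7 alone 2.09%, 11.8% and 32.2%.

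**Figure D4:**
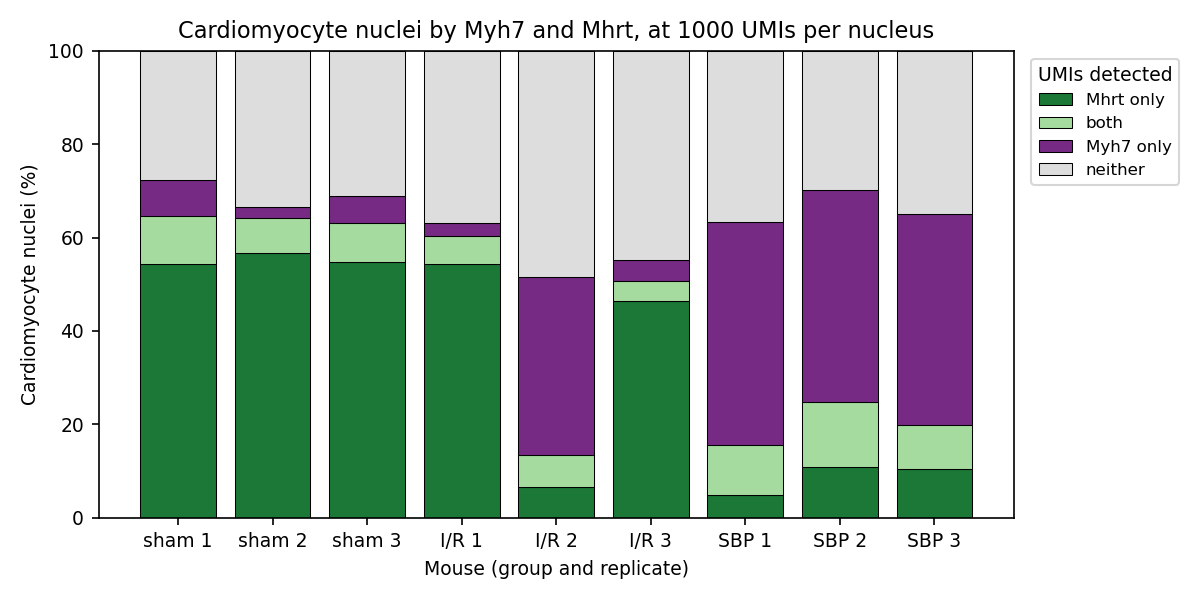
Cardiomyocyte nuclei of each mouse divided by whether they held a UMI of Mhrt only, of both, of Myh7 only or of neither, in percent, after thinning to 1000 UMIs. Mhrt only is 46.3% to 56.8% in the sham hearts and I/R replicates 1 and 3, and Myh7 only is 38.1% to 47.8% in the SBP hearts and I/R replicate 2.

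Within a mouse, the share of nuclei with Mhrt differed in either direction between nuclei with and without Myh7. Of nuclei with Myh7, 57.1%, 75.4% and 60.0% also held Mhrt in the sham mice, against 66.2%, 62.9% and 63.7% of those without Myh7. The pairs were 68.8% and 59.5%, 15.3% and 11.9%, and 49.1% and 50.8% in the I/R mice, and 18.2% and 12.0%, 23.3% and 26.8%, and 17.5% and 22.8% in the SBP mice. Mhrt was thus more frequent among Myh7 nuclei in 4 hearts and less frequent in 5. Some nuclei counted as carrying Myh7 may hold it from background, which was not separated. Myh7 was in 18.1% of cardiomyocyte and 8.63% of other nuclei of sham replicate 1, and in 9.68% and 0.97% in sham replicate 2. These shares are not a direct measure of the background in cardiomyocyte nuclei, which were deeper before thinning. Per nucleus without thinning, other nuclei held 11.7% of the cardiomyocyte level of Myh7 in sham replicate 1 and 3.77% in sham replicate 2. Nuclei with Myh7 only from background would bring carrying and other nuclei closer together, here and in the comparisons by Myh7 below.

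The log2 odds ratio of the pair, which is 0 where detection of one is unrelated to the other, ran from -0.56 to 0.84 over the hearts. The sham mean was 0.02 ± 0.73, the I/R mean 0.30 ± 0.35 and the SBP mean -0.02 ± 0.63 (SD, n = 3). Unthinned, where deeper nuclei hold more of every RNA, the means were 1.41, 1.96 and 0.40. On the thinned counts, no group difference was larger than the spread (exact permutation p = 0.6 for I/R vs. sham, 0.5 for SBP vs. I/R and 0.9 for SBP vs. sham). For Myh7 with Myh6 it ran from -0.72 to 2.43, positive in 6 of 9 hearts, with exact permutation p-values of 0.6, 0.4 and 0.9. Where nearly all nuclei held Myh6, this ratio rests on few nuclei.

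Mhrt and Myh6 were found together, with a log2 odds ratio of 0.30 to 5.11, above 0 in 9 of 9 mice. Only 0.38%, 0.63% and 1.61% of nuclei in the sham hearts held no Myh6, so the ratios there rest on few nuclei. The log2 odds ratio of Mhrt with the marker Ttn ran from -1.39 to 3.68 and was above 0 in 7 of 9 mice. It has the same limit, as Ttn was at means of 12.3 to 20.8 UMIs of 1000. Whether the place of Mhrt and Myh6 in the genome has a part in their joint detection was not tested. Nuclei with Mhrt held more Myh6 than nuclei without it in 9 of 9 mice, by 1.08 to 1.43 times (median 1.25), for example 12.0 against 9.34 UMIs of 1000 in sham replicate 3. Pearson's r of the thinned counts of Mhrt and Myh6 over nuclei was 0.04 to 0.29, above 0 in 9 of 9 mice, and that of Mhrt and Myh7 was -0.08 to 0.10. These are descriptions over 941 to 1488 nuclei of 1 library each, at counts low enough that weak values are not findings.

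Over log2 levels across the 9 mice, Pearson's r was -0.90 between Myh7 and Mhrt, 0.88 between Myh6 and Mhrt, 0.94 between Myh6 and Myh7b and -0.66 between Myh7 and Myh6, each over 9 mice that share groups and libraries and given as a description. Read by eye, 5 hearts had Mhrt at 723 to 1211 CPM and the other 4, with I/R replicate 2 among them, had Myh7 at 1253 to 2408 CPM. No clustering of the hearts was run.

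**Figure D5:**
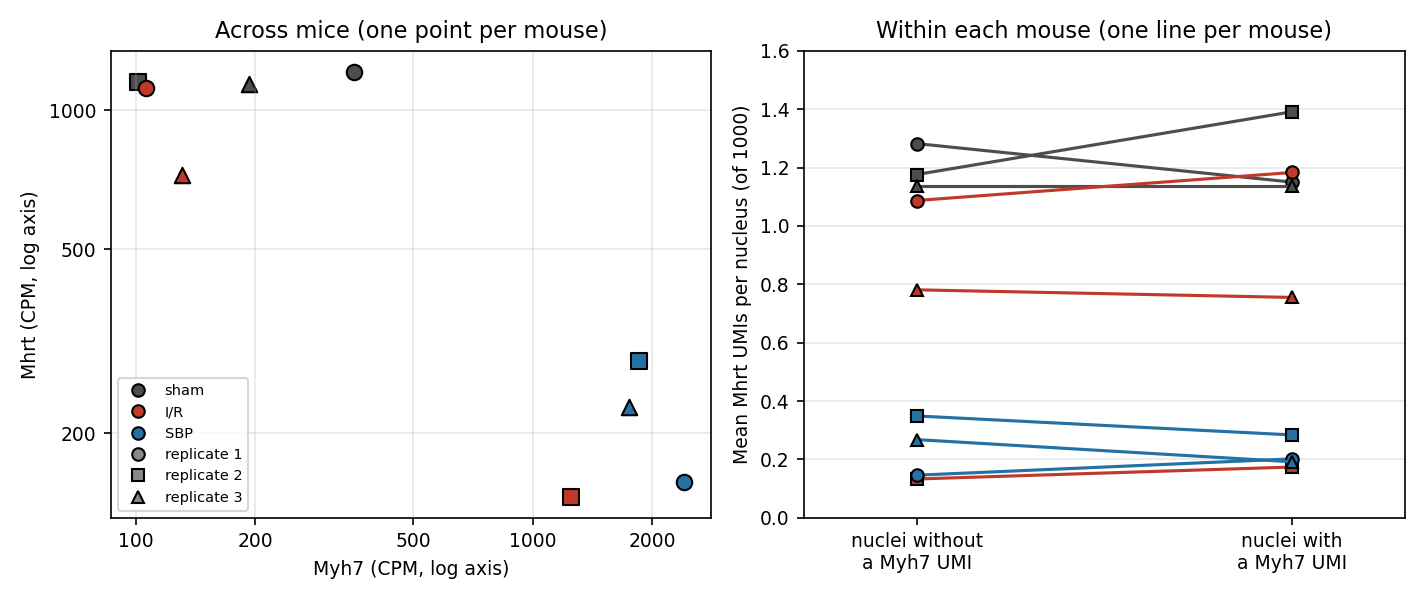
Left, Mhrt against Myh7 level in cardiomyocyte nuclei (CPM, log axes), 1 point per mouse. Right, mean Mhrt UMIs per nucleus thinned to 1000 UMIs in nuclei without and with a Myh7 UMI, 1 line per mouse. Hearts separate on the left, from 101 to 2408 CPM of Myh7, while on the right nuclei with Myh7 hold 0.72 to 1.38 times the Mhrt of those without.

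Nuclei carrying Myh7 were also compared with the other cardiomyocyte nuclei of the same mouse across all genes. The limma fit with the mouse as a block, on thinned UMIs summed over 93 to 648 carrying nuclei per mouse and with Myh7 left out, called 0 of 7198 genes (0.0%), with 629 at an unadjusted p under 0.05. The other members were near 0, with log2 fold changes of -0.06 for Myh6 (SE 0.03, lower in 7 of 9 mice, adjusted p = 0.572), -0.06 for Mhrt (SE 0.09, lower in 6 of 9, adjusted p = 0.824) and 0.23 for Myh7b (SE 0.13, higher in 5 of 9, adjusted p = 0.577). By mean thinned UMIs per nucleus, without that scaling, carrying nuclei held more Myh6 in 6 of 9 mice and more Myh7b in 8 of 9, so the direction for Myh6 turned with the scaling. The intervals of 2 SE were -0.13 to 0.01 for Myh6, -0.24 to 0.12 for Mhrt and -0.04 to 0.49 for Myh7b. Carrying nuclei that held Myh7 only from background were not separated here either.

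The gene with the smallest adjusted p was the nuclear noncoding RNA Malat1, named after its values were seen and lower in carrying nuclei in 9 of 9 mice, with a log2 fold change of -0.16 (limma adjusted p = 0.0025), under the size needed for a call and near the median of -0.13 over all genes in this fit. Ankrd1, a stress gene of the sarcomere and nucleus, was at -0.10 (SE 0.16, adjusted p = 0.838). Of nuclei with an Ankrd1 UMI, 57.7%, 51.4% and 54.3% held Myh7 in the SBP mice, against 59.5%, 63.7% and 54.8% of those without. None of the 12 tested genes of the fetal and stress list was called, nor any of 15 myosin partners or 38 regulators.

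With nuclei of 4 or more Myh7 UMIs set against those with none, a choice made after seeing the data, 5 mice had enough nuclei and 0 of 5525 genes were called, with 202 at an unadjusted p under 0.05. Myh6 was lower in the carrying nuclei in 5 of 5 mice there (log2 fold change -0.35, SE 0.14, adjusted p = 0.653), and Mhrt in 3 of 5 (-0.48, SE 0.49, adjusted p = 0.665).

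The genes around these 4 were read from lists chosen with earlier results known. In the lists as a whole, no gene was called in any of the 3 contrasts. Of 19 tested myosin partners (light chains, myosin binding proteins, chaperones and titin), 3 were lower in all I/R than all sham hearts, against 8.3% of all genes. The ventricular light chain Myl2 had a log2 fold change of -1.02 (SE 0.27, adjusted p = 0.129). Mylk4, a myosin light chain kinase family gene, was at 515, 365 and 490 CPM in sham, 343, 13.9 and 142 CPM in I/R, and 92.5, 224 and 142 CPM in SBP mice, and so was lowest in I/R replicate 2, as Myh6 was. In SBP vs. sham, 2 partners were higher and 4 lower without overlap, against 10.7% and 12.6% of all genes. In SBP vs. I/R, 2 were higher without overlap, against 2.75% of all genes. The largest changes there were in other partners, Mylk4 at 0.68 (SE 0.89) and Mylk3 at 0.45 (SE 0.22), and the groups overlapped for both. The lowly counted Mybpc2 was at 0.72 (SE 0.43) in SBP vs. sham.

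Of 48 regulators of the cardiac myosin genes, 44 were tested, and their median log2 fold change was -0.03, 0.00 and -0.01 in I/R vs. sham, SBP vs. I/R and SBP vs. sham, against -0.03, 0.00 and -0.02 over all genes. Nfatc2, a calcineurin target, was at 111, 102 and 63.2 CPM in sham, 62.4, 43.0 and 35.5 CPM in I/R and 73.9, 60.5 and 71.3 CPM in SBP mice (adjusted p = 0.12 in I/R vs. sham, 1 in SBP vs. I/R). In SBP vs. sham, 9 of the 44 were higher and 3 lower without overlap, against 10.7% and 12.6% of all genes. Myocd, the coactivator of serum response factor, was among those lower in all SBP hearts (log2 fold change -0.70, SE 0.29, adjusted p = 0.332). Egr1 (0.95 in I/R vs. sham, 0.71 in SBP vs. sham) and Srf (0.53 in SBP vs. I/R) were counted at 2.60 to 12.9 and 3.10 to 9.10 CPM.

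The fetal and stress list had a median log2 fold change of 0.51 in SBP vs. sham, 0.06 in I/R vs. sham and 0.25 in SBP vs. I/R. In SBP vs. sham, 8 of 17 tested genes were higher and 1 lower without overlap, against 10.7% and 12.6% of all genes. In I/R vs. sham, 5 were higher and 2 lower without overlap, against 8.08% and 8.3%. In SBP vs. I/R, 3 were higher without overlap, against 2.75%, and none was lower. Nppb, which encodes B-type natriuretic peptide, was at 21.9, 9.40 and 40.3 CPM in sham, 42.9, 112 and 67.6 CPM in I/R, and 132, 92.2 and 106 CPM in SBP mice (log2 fold change 2.36 in SBP vs. sham, SE 0.47, adjusted p = 0.0799). Ankrd1 was at 136 to 218 CPM in sham, 481, 1911 and 642 CPM in I/R, and 2004, 860 and 671 CPM in SBP mice (2.57 in SBP vs. sham, SE 0.52, adjusted p = 0.0841, and 2.25 in I/R vs. sham, adjusted p = 0.0965). Ccn2, a matricellular growth factor gene, was at 2.02 in I/R vs. sham (SE 0.64, adjusted p = 0.2). Acta1, the fetal skeletal actin, was at 3.8 to 8.4 CPM in sham and I/R and at 20.4, 17.3 and 14.5 CPM in SBP mice (1.42 in SBP vs. I/R, SE 0.28, adjusted p = 1), and so was higher in SBP hearts than in I/R replicate 2. Acta2 was at 1.09 in SBP vs. I/R (SE 0.49).

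Only 4 of 12 other myosin heavy chains passed the filter, and their estimates were -0.34 for Myh11 and 0.39 for Myh9 in I/R vs. sham, and 0.45 for Myh10 and 0.75 for Myh11 in SBP vs. I/R. Myh10, a nonmuscle chain, was at 0.40 and Myh11, that of smooth muscle, at 0.41 in SBP vs. sham. Myh11 was lowly counted, at 0.8 to 2.7 CPM in sham and I/R hearts and 2.3, 9.5 and 1.5 CPM in SBP hearts (SE 0.47). Its groups overlapped in each contrast. Of 9 atrial markers, 5 were tested, at medians of -0.12, 0.30 and -0.01 in the 3 contrasts. Nppa was at 27.0, 8.1 and 37.4 CPM in sham, 15.9 to 21.8 CPM in I/R and 28.1 to 33.1 CPM in SBP hearts. Its log2 fold change was 0.64 (SE 0.42) in SBP vs. I/R and 0.56 (SE 0.42) in SBP vs. sham, where the groups overlapped. Fgf12, counted at 3.4 to 27.2 CPM, was at -0.33 in I/R vs. sham and -0.52 in SBP vs. sham (SE 0.61 for both). Stard10, counted at 1.1 to 4.1 CPM, was at -0.45 in I/R vs. sham and at 0.44 in SBP vs. I/R (SE 0.31 for both). Of 12 conduction markers, 11 were tested, at medians of -0.48, 0.17 and -0.35. Ntm was at -2.13 in I/R vs. sham, -1.64 in SBP vs. sham and 0.48 in SBP vs. I/R, and Cacna1g at 0.49 in the last of these. The I/R hearts were spread for both, at 28.4, 1.7 and 2.1 CPM for Ntm (SE 0.77) and 22.5, 7.4 and 3.9 CPM for Cacna1g (SE 0.59).

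The genes most like the members over the 9 mice, among 5757 genes with a mean of at least 20 CPM, are given by Pearson's r of log2 levels, as a description. For Myh7 these were Osbp (0.93), Mta1 (0.92), Snx4 (0.89), Mllt6 (0.87) and F11r (0.87), whose levels moved far less than that of Myh7, for example Osbp from 116 to 161 CPM. For Myh6 they were Aven (0.98), Mylk4 (0.96), Senp8 (0.96), Entr1 (0.96) and Gm17428 (0.96). For Mhrt they were Gm31251 (0.99), Mia2 (0.98), Lama2 (0.97), Cdc23 (0.96) and Gm17428 (0.95). Gm31251 was at 1770 to 2105 CPM in sham, 1628, 134 and 1023 CPM in I/R, and 161, 398 and 427 CPM in SBP mice.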

How the data were processed

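Nuclei of 9 mouse hearts (3 sham, 3 I/R, 3 SBP, grouped by their labels) were profiled with 10x 3′ v3 chemistry. Per the labels, the submitters used Cell Ranger 4.0, STAR and Seurat 3.2.0 with GRCm38. The deposited values are natural log values that the authors made from UMI counts, as ln(1 + 10000 × UMIs of the gene / UMIs of the nucleus). The whole UMIs were recovered by inverting this scale, within a tolerance of 0.1 of a whole number. Whether intronic reads were counted, and on which strand, is not given in the sources used here. The tables hold 49171 barcodes, fewer than the number of cells in the study's text, and every nucleus passes the study's filter of genes per nucleus. Columns of other samples numbered 0.

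Nuclei were clustered with scanpy 1.11.5 (Python 3.11.15) without the 4 genes, and 1 cluster was named cardiomyocyte from its markers. The doublet caller marked 85 nuclei (0.173%), too few for it to have worked, and these were removed. Cardiomyocyte UMIs were summed per mouse, scaled by TMM and tested as log2(CPM + 1) with limma 3.58.1 (R 4.3.3), 1 fit over 9 mice, for genes passing a minimum of 10 UMIs in a median library in at least 3 mice and 15 UMIs in all. A fold change on this scale understates that of low genes. A gene was called at 0.05 after Benjamini-Hochberg adjustment if it also changed by more than 0.25 on the log2 scale. Shares were compared by two-sided exact permutation tests over mice, after thinning nuclei to 1000 UMIs. Binomial intervals (95%, exact) cover counting error only. Myh7-carrying and other nuclei were summed per mouse (at least 20 nuclei each) and compared with the mouse as a block. The scripts were tested on simulated data. Log2 odds ratios add 0.5 to each count.

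The 4 genes and the lists were chosen with earlier results of these data known. Named list genes are the 2 with the largest absolute change per list and contrast, and likeness names the 5 genes of highest Pearson's r. A gene that the rule names is not reported here. Alternatives were other scaling, filters, pseudocounts, thinning depths, nucleus choices, background subtraction, a replicate block, fits of 6 mice and leaving out each mouse, and nuclei of 4 or more Myh7 UMIs, added after seeing the data.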

Additional observations from a re-analysis of the deposited data

How the results depend on the processing

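Across all alternatives, 628 of the recomputed values behind the main comparisons kept their direction and side of the threshold. Of the others, 29 changed direction, 26 moved and 8 newly passed the threshold. Part of the 628 could not change. An exact permutation test with a smallest p of 0.1 cannot pass 0.05, and leaving out a mouse outside a contrast leaves its share difference as it was. The count is therefore not a measure of how well the results hold. Genes called in I/R vs. sham (105) became 66 with only those 6 mice, 17 with background subtracted, 260 with cardiomyocytes from a marker score, 45 with a filter of 50 UMIs, and 22 to 796 on leaving out a mouse. In SBP vs. sham, 16 became 390 with those 6 mice (where Myh7 at 3.37 and Mhrt at -2.42 passed), 43 by marker score, 0 at a pseudocount of 5, 7 with the filter of 50 UMIs and 0 to 278 without a mouse. In SBP vs. I/R, 0 became 0 to 1. Myh7-carrying nuclei gave 1 gene at a pseudocount of 5 (Mid1) and 1 when thinned to 2000 UMIs (Hdac7), where Mhrt was at 0.026, and Myh7b was at -0.094 when thinned to 500 UMIs.

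Leaving out a mouse gave these ranges of log2 fold change. In I/R vs. sham they were -0.69 to 1.08 for Myh7 and -1.90 to -0.60 for Myh7b. In SBP vs. I/R they were -0.65 to 0.53 for Myh6, 2.30 to 4.06 for Myh7, -0.19 to 1.12 for Myh7b and -2.04 to -0.57 for Mhrt, and in SBP vs. sham 2.92 to 3.82 for Myh7 and -2.62 to -2.17 for Mhrt. Shares moved, in percentage points, between -7.93 and 7.75 for Myh6 and between -3.89 and 9.81 for Myh7b in SBP vs. I/R, and between -5.19 and 12.95 for Myh7 in I/R vs. sham, while the Myh7 share of UMIs moved between -0.48 and 19.5 there. By marker score the Myh6 share in SBP vs. I/R was -0.93.

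Several log2 odds ratio differences changed sign. Without a mouse, that of Myh7 with Mhrt differed by -0.009 to 0.69 in I/R vs. sham and -0.39 to 0.38 in SBP vs. sham, and that of Myh7 with Myh6 by -0.23 to 1.14 and -0.72 to 0.28. Myh7 with Myh6 in SBP vs. sham turned to 0.38 with no doublets removed, 1.49 thinned to 2000 UMIs, 0.98 unthinned and 0.37 at 2 or more UMIs. In SBP vs. I/R it turned to 0.71 thinned to 2000 UMIs and 0.20 unthinned, and in I/R vs. sham to -0.62 thinned to 500 UMIs. Myh7 with Mhrt in SBP vs. sham turned to 0.12 with the 4 genes kept for clustering and 0.28 thinned to 500 UMIs. The cause was not tested for any of these.

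Same-numbered mice did not deviate together (r of -0.32 to 0.26 over pairs), so replicate numbers do not pair the samples. A replicate block called 91, 0 and 0 genes in I/R vs. sham, SBP vs. I/R and SBP vs. sham.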

Other observations

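Actc1, the cardiac actin, was found in both kinds of nuclei, at 2.20 to 18.9 times as many UMIs per nucleus as in other nuclei of the same mouse (median 5.80). By mean thinned UMIs, nuclei with a Myh7 UMI held 0.97 to 2.26 times the Myh7b of the others (median 1.07), above 1 in 8 of 9 mice, but Myh7b was higher in 5 of 9 in the scaled sums and the correlation over nuclei was above 0 in 5 of 9. Nuclei with Mhrt held more Myh7b in only 3 of 9.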
